A study of Mus musculus with 13 samples.

Results

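The 8 Fc receptor genes Fcgr1, Fcgr2b, Fcgr3, Fcgr4, Fcer1g, Fcer2a, Fcmr and Fcrl1 were taken from the 57010 genes listed for a split-pool single-cell RNA experiment on mouse cells. They were chosen by symbol, and each symbol had 1 row in the gene lists. The rule uses no measured value, although the set was proposed with earlier results of these data known. The Parse assay needs no droplets: fixed cells are shuffled between wells again and again, and the wells a cell has passed through make up its barcode. The Parse WT library held 20 tissue samples. Its thymic samples 1 to 4 came from the 2 thymic lobes of each of 2 female C57BL/6N mice aged 2 months. The 4 samples of the smaller Parse Mini library came from a separate isolation of thymus from 2 young mice of the same strain and sex, each giving 2 technical samples, so that the kits differ in mice as well. The other 16 samples are non-thymic and carry no group: the series as a whole covers thymus and spleen of young and adult mice, but beyond non-thymic the sources used here do not state the tissue, age or treatment of a single sample. These samples are called other samples 1 to 16, and they were used as blocks and never as replicates of a treatment. For the Mini samples it is not stated whether the number or the letter stands for the mouse.

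Fc receptors bind the constant part of antibodies and so connect antibody to the cell that carries the receptor. Fcgr1, Fcgr3 and Fcgr4 encode activating receptors for IgG that signal through the common gamma chain, the product of Fcer1g, whose tyrosine motifs recruit the kinase Syk. Fcgr2b encodes the inhibitory IgG receptor, which recruits the phosphatase SHIP1 (Inpp5d) and is the IgG receptor of B cells. Fcer2a encodes CD23, the low-affinity IgE receptor of mature B cells, Fcmr the IgM receptor, and Fcrl1 an Fc receptor-like molecule of the B cell surface. Mouse NK cells carry the Fcgr3 product (CD16) as their activating IgG receptor.

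All 8 are protein-coding genes in GENCODE M21 on GRCm38. Fcgr2b (ENSMUSG00000026656, chr1:170958617-170976547, minus strand), Fcgr4 (ENSMUSG00000059089, chr1:171018920-171029761, plus strand), Fcgr3 (ENSMUSG00000059498, chr1:171051174-171064935, minus strand) and Fcer1g (ENSMUSG00000058715, chr1:171229572-171234365, minus strand) lie together on chromosome 1. Fcmr (ENSMUSG00000042474) is at chr1:130865669-130880791 on the plus strand, Fcgr1 (ENSMUSG00000015947) at chr3:96282909-96293969 on the minus strand, Fcrl1 (ENSMUSG00000059994) at chr3:87376387-87402934 on the plus strand and Fcer2a (ENSMUSG00000005540) at chr8:3681737-3694175 on the minus strand. The antisense gene Gm38204 overlaps Fcgr2b, the microRNA gene Mir6546 overlaps Fcgr3 and the snRNA gene Gm26110 overlaps Fcgr4. The sources used here do not say whether counting used the strand, so that for reads in the stretch where Fcgr2b and Gm38204 overlap the gene of origin is uncertain.

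Fcgr2b and Fcgr3 share a stretch of coding sequence, which bears on every value of this pair, because a read from it fits both genes. The longest run of identical bases covers positions 278 to 406 of the Fcgr2b coding sequence and positions 263 to 391 of that of Fcgr3.
Fcgr2b and Fcgr3, shared 129 bases: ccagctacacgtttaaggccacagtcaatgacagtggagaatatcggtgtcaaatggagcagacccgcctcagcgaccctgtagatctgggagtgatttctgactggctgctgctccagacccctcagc
Of all 50-base words of the transcripts, 4.38% of those of Fcgr2b and 9.58% of those of Fcgr3 also occurred in another gene, against 1.16% for Fcer2a and 0% for the other 5 members. No other pair of the 4 Fcgr genes shared a run of over 14 coding bases. Levels of Fcgr2b and Fcgr3 are therefore uncertain to the extent that reads of the shared stretch were split between them.

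The promoters of the activating receptors are shown because these genes were highest in the same cell classes below, and that of the B cell gene Fcrl1 stands beside them for comparison. Each sequence is the 250 bases before a RefSeq start site on GRCm38.p6, and capitals mark the letters GAGGAA, the core of the sites of the myeloid and B cell factor PU.1, on either strand.
Fcgr1, within chr3:96293920-96294219, minus strand: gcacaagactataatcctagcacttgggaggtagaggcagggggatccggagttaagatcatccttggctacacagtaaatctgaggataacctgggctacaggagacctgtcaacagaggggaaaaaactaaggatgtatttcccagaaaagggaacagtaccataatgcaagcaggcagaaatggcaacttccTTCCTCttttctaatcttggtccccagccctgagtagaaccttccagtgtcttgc
Fcgr3, within chr1:171059354-171059653, minus strand: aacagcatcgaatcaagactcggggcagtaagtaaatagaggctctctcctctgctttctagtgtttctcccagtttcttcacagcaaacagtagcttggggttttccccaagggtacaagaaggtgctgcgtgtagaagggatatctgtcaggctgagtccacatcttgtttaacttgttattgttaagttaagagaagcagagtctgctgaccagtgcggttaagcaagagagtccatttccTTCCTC
Fcgr4, within chr1:171018676-171018975, plus strand: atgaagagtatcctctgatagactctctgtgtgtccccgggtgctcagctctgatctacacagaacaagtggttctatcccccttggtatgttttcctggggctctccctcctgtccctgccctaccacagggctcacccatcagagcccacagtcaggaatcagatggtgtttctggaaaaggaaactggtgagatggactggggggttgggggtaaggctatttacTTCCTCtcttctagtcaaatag
Fcrl1, within chr3:87376137-87376436, plus strand: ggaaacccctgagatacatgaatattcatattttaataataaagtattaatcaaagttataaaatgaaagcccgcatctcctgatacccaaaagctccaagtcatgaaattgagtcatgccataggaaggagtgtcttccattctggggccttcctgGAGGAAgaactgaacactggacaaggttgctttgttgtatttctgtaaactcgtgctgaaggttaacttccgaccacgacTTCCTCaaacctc
In the 300-base window from 250 bases before to 50 after the start, GAGGAA or its complement was found in the promoters of Fcgr1, Fcgr3, Fcgr4, Fcmr and Fcrl1 and was not among the letters of those of Fcgr2b, Fcer1g and Fcer2a. The same letters occurred in 9278 of 32817 mouse promoters (28.3%). The octamer ATGCAAAT, in 1.74% of promoters, was found in none of the 8. A match is a description of the letters and not a binding site.

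The 16 other samples held 86786 cells, 2109 to 8406 per sample with a median of 1527 to 8039 UMIs (unique transcript molecules) per cell and 5405078 to 91172408 UMIs per sample, and 79828 cells remained after quality control and removal of called doublets. The 4 thymic samples held 41838 cells and the 4 Mini samples 20085, of which 37478 and 18302 remained. No barcode combination occurred more than once within a kit, and 460 combinations occurred in both kits. Cells were clustered without the 8 members and without the other Fc receptor genes, and clusters were named from marker lists. Among the other samples each of the NK-like, macrophage-like, monocyte-like, neutrophil-like, cDC1-like, cDC2-like and pDC-like classes had UMIs of every marker of its own list. This is a weak check of the names, since B lineage markers had UMIs in most other classes as well. Activated DC-like cells were not checked in this way. Several clusters came mostly from 1 sample. Of the B cells, 10708 lay in 8 clusters mostly of sample 3, 5, 6, 7 or 11, and these cells were kept apart from the named subsets. Sample 10 stood apart from the rest: it held 7 follicular-like B cells, a cluster of 265 cells with monocyte markers, one of 201 with neutrophil markers and one of 396 with T cell markers came to over 97% from it and were kept apart from the named classes, and 2 unnamed clusters of 1026 and 805 cells came to over 99% from it. In all, 9675 cells stayed unnamed, among them clusters with markers of B cells and of another class together.

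Levels are given as CPM, UMIs of the gene scaled to 1e6 UMIs outside ribosomal RNA genes and summed over the cells of a class in a sample with at least 10 such cells. The members fell into B cell genes and myeloid genes, with Fcgr2b in both. Fcer2a, Fcmr and Fcrl1 were highest in follicular-like, marginal zone-like or immature-like B cells. Fcgr1 and Fcgr4 had their highest medians in monocyte-like and macrophage-like cells, and Fcgr3 and Fcer1g in these and in neutrophil-like cells. Between classes that were neighbours in the order of the medians the sample ranges nearly always overlapped: of 14 neighbouring pairs per member, the exceptions were 1 pair for Fcgr1, macrophage-like against cDC2-like cells, and 1 for Fcgr3, macrophage-like against T-like cells. Such gaps were not counted over all genes, so that these are a description and not a result about the members.

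**Figure D1:**
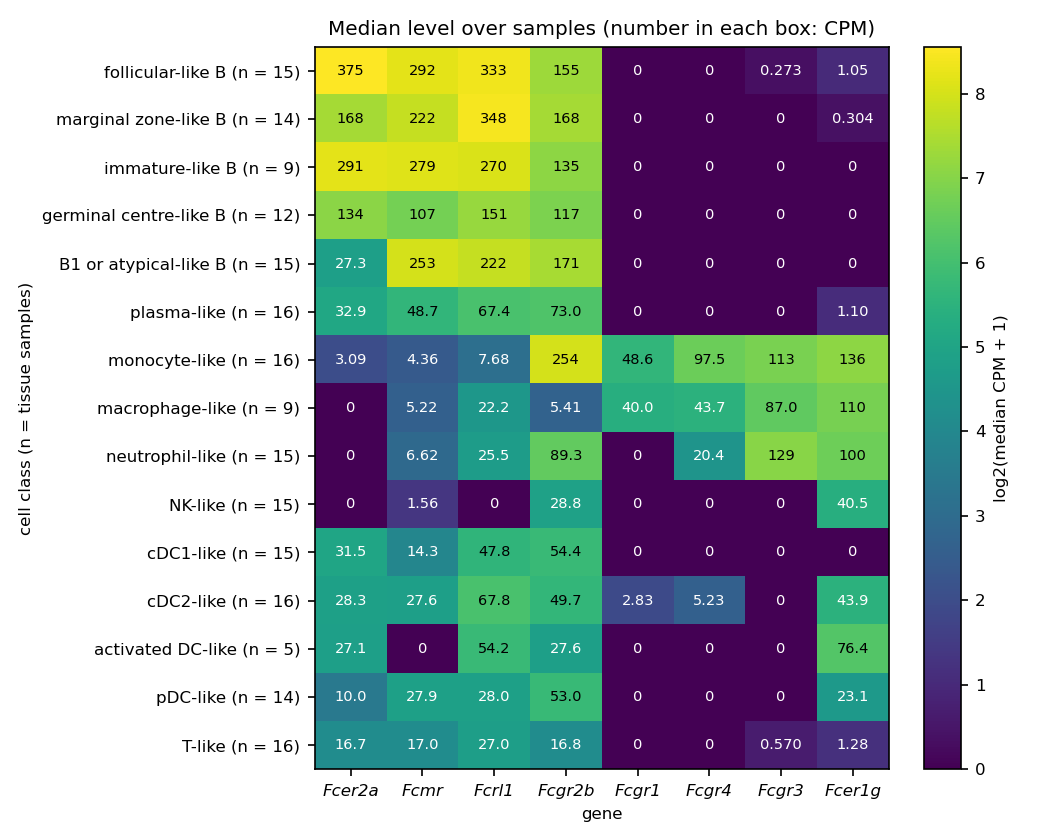
Median level of each member (columns) in each cell class (rows) over the tissue samples with at least 10 cells of the class, with the CPM printed in each box and shaded on a log scale. Fcer2a, Fcmr and Fcrl1 fill the B cell rows, Fcgr1, Fcgr3, Fcgr4 and Fcer1g the monocyte-like, macrophage-like and neutrophil-like rows (Fcgr1 at 0 in the last), and Fcgr2b fills both except macrophage-like cells, at a median of 5.41 CPM.

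In follicular-like B cells (14572 cells, 15 samples) the 4 B cell members were present in every sample. Fcer2a ranged from 169 to 670 CPM with a median of 375, Fcrl1 from 268 to 476 with a median of 333, Fcmr from 193 to 440 with a median of 292, and Fcgr2b from 108 to 202 with a median of 155. Fcer2a had the widest range of them between samples. The class pooled several clusters, among them one led by Egr3, Mreg and Cd83 and one led by Mx2 and Mx1. Between its clusters the medians ran from 242 to 396 CPM for Fcmr and from 277 to 426 for Fcrl1. They ran from 347 to 488 CPM for Fcer2a and from 109 to 163 for Fcgr2b. Comparisons below are against the class as a whole, and none of its clusters was tested alone. Divided by the length of the merged exons, the pooled levels were 199 CPM per kb for Fcmr, 163 for Fcer2a, 98.6 for Fcrl1 and 25 for Fcgr2b, so that Fcmr stood first per exon length. This order is uncertain, as the sources used here do not say whether introns were counted. With introns the gene of Fcmr is longer than that of Fcer2a, at 15123 against 12439 bases. The activating receptors and their chain were close to absent in the same cells: pooled levels were 0.0646 CPM for Fcgr1 (2 UMIs), 0.549 for Fcgr3, 0.194 for Fcgr4 and 1.26 for Fcer1g.

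B cell members and B lineage markers were both seen at low levels in other cells. In T-like cells the 4 B cell members stood at a median of 5.27% (Fcer2a) to 9.89% (Fcgr2b) of the follicular-like level of the same sample, and the 10 B lineage markers together at 7.98%. All 10 B lineage markers had UMIs in each class of the other samples described here, except the basophil or mast-like one. Their summed level ranged from 11715 to 18240 CPM over samples in follicular-like B cells, from 448 to 4728 in T-like cells, from 1011 to 3842 in macrophage-like cells, from 229 to 893 in monocyte-like cells, from 196 to 1251 in neutrophil-like cells, from 179 to 1165 in NK-like cells and from 367 to 3600 in cDC2-like cells. The part of such RNA in the low levels of Fcer2a, Fcmr, Fcrl1 and Fcgr2b outside the B lineage was not tested.

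Fcer2a, the CD23 gene, was lower in marginal zone-like, immature-like and plasma-like cells than in follicular-like B cells. In marginal zone-like B cells (2210 cells, 14 samples), innate-like B cells at the border of the splenic follicle, Fcer2a ranged from 44.4 to 239 CPM with a median of 168, against 169 to 670 with a median of 366 in follicular-like B cells of the same samples. The ranges overlapped, and within samples the level was lower in 14 of 14. Relative to the follicular-like cells of each sample Fcer2a fell by 1.47 ± 0.06 (SE) on the log2 scale (edgeR adjusted p = 7.1e-35). Fcmr, with 55.6 to 311 CPM against 193 to 440, was lower in 14 of 14 samples and fell by 0.63 ± 0.06 (edgeR adjusted p = 2.2e-15). Fcgr2b went the other way: 156 to 266 CPM against 108 to 202, higher in 11 of 14 samples, with a rise of 0.41 ± 0.07 (edgeR adjusted p = 2.2e-07). Its medians over samples were close, at 168 against 162 CPM. Fcrl1 was at a median of 348 CPM in both classes, higher in 6 and lower in 8 samples, with a difference of -0.03 ± 0.06 (edgeR adjusted p = 0.758). Thus 3 of the 4 members tested passed, beside 33.4% of the 7838 genes tested. The median difference was -0.33 over the 4 members and -0.01 over all genes.

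Without the sample block the difference of Fcgr2b was 0.19 and no longer passed (edgeR adjusted p = 0.309, with a range over the alternatives of 7.8e-08 to 0.309). With the 31% highest doublet scores left out Fcer2a, Fcmr and Fcgr2b differed by -2.30, -1.02 and 0.26, and Fcrl1 was called lower at -0.24 (edgeR adjusted p = 0.00581, with a range over the alternatives of 0.00581 to 0.961).

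**Figure D2:**
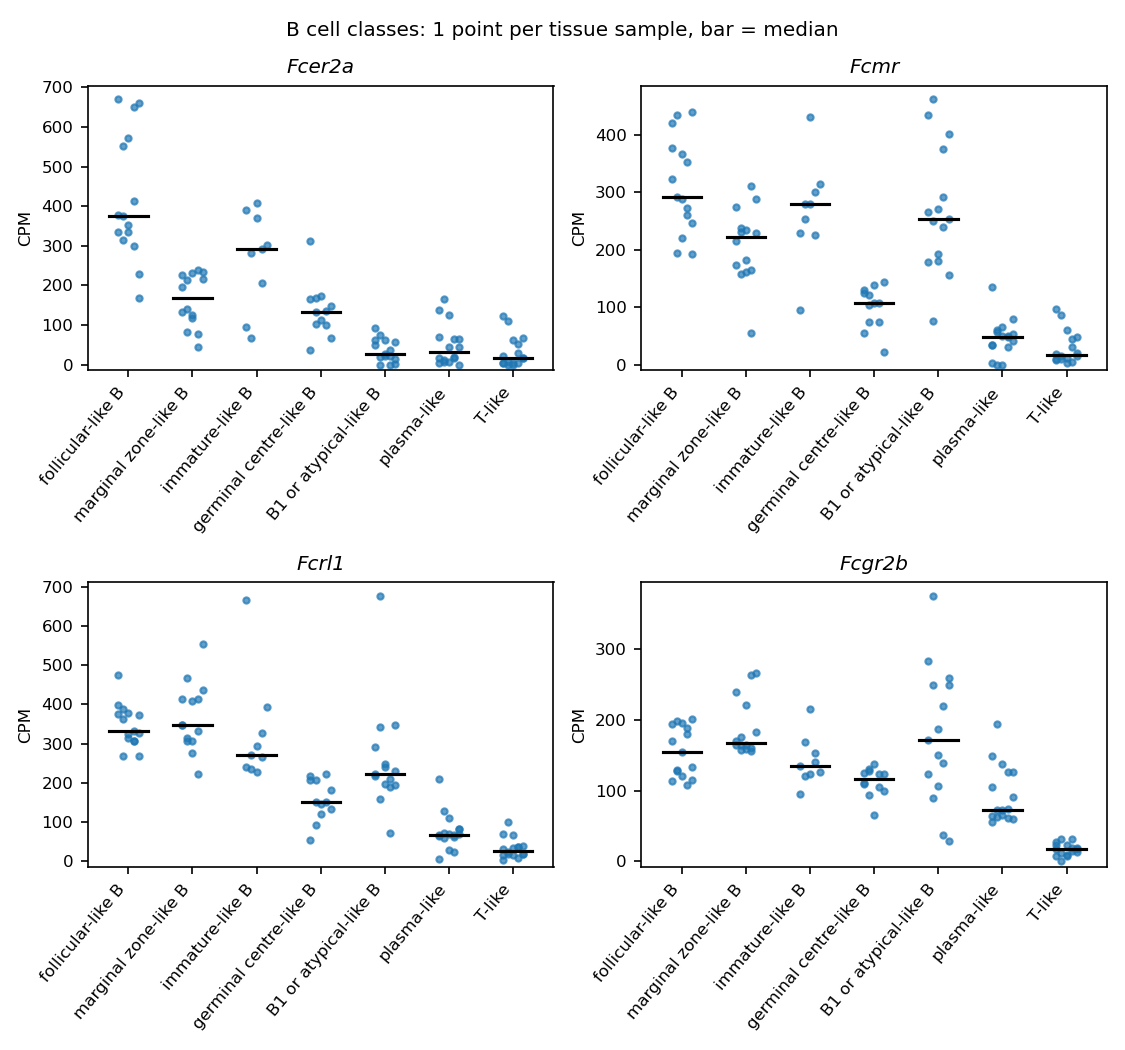
Levels of Fcer2a, Fcmr, Fcrl1 and Fcgr2b in CPM (vertical axis) in the B cell classes, plasma-like cells and T-like cells (horizontal axis), with 1 point per tissue sample and a bar at the median. Fcer2a spreads from 169 to 670 CPM in follicular-like B cells and is at a median of 27.3 in B1 or atypical-like B cells, where Fcmr is at 253.

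Immature-like B cells (1919 cells, 9 samples) were named from markers of B cell precursors such as Cd93, Vpreb3 and Rag1. In them Fcer2a ranged from 67.5 to 409 CPM with a median of 291, against 299 to 670 with a median of 551 in follicular-like cells. It was lower in 8 of 9 samples and fell by 0.91 ± 0.08 (edgeR adjusted p = 2.4e-24). Fcmr, at a median of 279 against 367 CPM and lower in 7 of 9 samples, fell by 0.41 ± 0.08 (edgeR adjusted p = 2.0e-06). Fcrl1, at 270 against 333 CPM and lower in 8 of 9 samples, fell by 0.35 ± 0.08 (edgeR adjusted p = 4.1e-05). Both falls are against the follicular-like class as a whole, whose clusters had Fcmr medians from 242 to 396 CPM and Fcrl1 medians from 277 to 426. The inhibitory receptor Fcgr2b, at 135 against 128 CPM and higher in 7 of 9 samples, differed by 0.14 ± 0.09 and did not pass (edgeR adjusted p = 0.272). So 3 of 4 members tested passed, beside 30.7% of 7130 genes, with a median of -0.38 over the members and -0.01 over all genes. With the 31% highest doublet scores left out Fcer2a differed by -1.46, and the 3 calls held in 8 of 8 alternatives.

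Plasma-like cells (1157 cells, 15 samples with both classes), which secrete antibody, were low in all 4 B cell members. Fcer2a was at a median of 45.6 CPM against 375 in follicular-like cells, Fcmr at 49.7 against 292, Fcrl1 at 66.3 against 333 and Fcgr2b at 72.4 against 155, and each was lower in 15 of 15 samples. These medians and sample counts are of CPM, without the TMM scaling of libraries that the test applies. Fcer2a fell by 2.83 ± 0.17 (edgeR adjusted p = 1.5e-15), Fcmr fell by 2.21 ± 0.14 (edgeR adjusted p = 9.8e-15) and Fcrl1 fell by 2.09 ± 0.13 (edgeR adjusted p = 8.4e-15). Fcgr2b fell by 0.50 ± 0.10 (edgeR adjusted p = 5.0e-05), and it differed by -0.85 on library sizes alone, without TMM scaling, and by -0.81 with no filter on low counts. All 4 members tested passed, beside 57.8% of 6002 genes, with a median of -2.15 over the members and -0.01 over all genes. The filter on low counts shaped this count and median, so that neither is read as a result. It kept members that are high in follicular-like cells and left out the others. Fcer2a, Fcmr and Fcrl1 had 209, 224 and 247 UMIs in plasma-like cells, against 15595, 10715 and 10859 in follicular-like cells. The size depended on the cells kept: with finer clusters Fcer2a, Fcmr and Fcrl1 differed by -4.86, -4.88 and -3.30, and with the 31% highest doublet scores left out by -4.57, -5.01 and -3.32.

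The remaining B cell classes were not tested against follicular-like cells. Germinal centre-like B cells (1389 cells, 12 samples), which mutate their antibody genes, had medians of 134 CPM for Fcer2a, 107 for Fcmr, 151 for Fcrl1 and 117 for Fcgr2b. B1 or atypical-like B cells (3060 cells, 15 samples) had Fcer2a at a median of 27.3 CPM, with 0 in samples 10 and 12 and 92.4 at the highest, but Fcmr at 253, Fcrl1 at 222 and Fcgr2b at 171. A further 4052 B cells lay in 2 clusters with no subset name. In one of these (2500 cells) the medians were 290 CPM for Fcgr2b and 183 for Fcmr, and in the other (1552 cells) 171 and 300, with Fcgr2b lower and Fcmr higher in 14 of 14 samples. This pair is given as a description, since it was picked after the values were seen. In the 10708 B cells of single-sample clusters Fcer2a ranged from 6.34 to 150 CPM between clusters and Fcmr from 120 to 263. Among these, the cluster of sample 6 had 389 CPM of Fcgr2b and a cluster of sample 5 had 306, against 107 to 200 in the other 6.

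Fcer1g was higher in NK-like than in T-like cells. In NK-like cells (1179 cells, 15 samples) the gamma chain gene ranged from 0 to 125 CPM with a median of 40.5, against 0 to 9.34 with a median of 1.28 in T-like cells. It was higher in 14 of 15 samples, by 4.66 ± 0.33 on the log2 scale (edgeR adjusted p = 3.4e-15). In the fit with no filter, where 14.8% of 30540 genes passed, Fcer1g was higher by 4.44 ± 0.26 (edgeR adjusted p = 2.6e-36). With the 31% highest doublet scores left out no member passed the filter, so that Fcer1g was not tested there. Fcgr2b, at 28.8 against 17.0 CPM and higher in 9 of 15 samples, rose by 0.78 ± 0.23 (edgeR adjusted p = 0.00648). That call was lost with no filter on low counts, at 0.57 (edgeR adjusted p = 0.0521, with a range over the alternatives of 0.00650 to 0.0521). Both members tested passed, beside 33.8% of 6376 genes, with a median of 2.72 over these 2 and -0.05 over all genes. The filter itself shaped this count and median, since Fcer1g passed it through NK-like cells and the other 6 members were left out, so that neither is read as a result.

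Fcgr3, the CD16 gene, had 48 UMIs in NK-like cells, a pooled level of 18.3 CPM (95% Poisson interval 13.5 to 24.3) against 0.693 in T-like cells, and its count lay under the filter on low counts. With every gene of at least 1 UMI in the fit it differed by 4.05 ± 0.36 (edgeR adjusted p = 2.4e-20), although it was higher in 6 and lower in 5 of 15 samples. In that fit 5 members passed, beside 14.8% of 30540 genes, with differences of -3.42 for Fcer2a, -2.85 for Fcmr and -2.52 for Fcrl1. These 3 genes had T-like medians of 17.6, 19.1 and 31.8 CPM, beside B lineage markers at up to 4728 CPM. Fcgr1 and Fcgr4 had 1 and 0 UMIs in NK-like cells.

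In monocyte-like cells (2371 cells, 16 samples) all 4 IgG receptors and the gamma chain were present in every sample. Fcgr2b ranged from 113 to 335 CPM with a median of 254, Fcer1g from 56.6 to 248 with a median of 136, Fcgr3 from 54.4 to 167 with a median of 113, Fcgr4 from 53.9 to 279 with a median of 97.5 and Fcgr1 from 19.8 to 130 with a median of 48.6. Sample 10, with 16 such cells, was the highest for Fcgr2b, Fcgr3 and Fcgr4. Per kb of exon the pooled levels were 159 CPM for Fcer1g, 74.5 for Fcgr4, 60.8 for Fcgr3, 43.7 for Fcgr2b and 20.2 for Fcgr1, so that the shared chain stood above each receptor on this scale. Whether introns were counted is not stated, so that values per kb of exon are uncertain.

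Macrophage-like cells of the other samples (581 cells, 9 samples) held few transcripts of the inhibitory receptor, unlike the thymic ones described below. Their cluster was led by Itgad, Mertk and Vcam1, and all 15 macrophage markers had UMIs. Fcgr2b ranged from 0 to 19.1 CPM with a median of 5.41, against 113 to 322 with a median of 246 in monocyte-like cells of the same samples, so that the groups did not overlap. How many of all genes had no overlap between these groups was not counted. It was lower in 9 of 9 samples and fell by 5.32 ± 0.24 (edgeR adjusted p = 4.4e-20). In T-like cells the median was 16.8 CPM. A further 544 cells with markers of both macrophages and B cells stayed unnamed and out of this comparison, and their pooled level of Fcgr2b was 64.6 CPM. The activating receptors remained: Fcgr3 at a median of 87.0 against 123 CPM, Fcgr4 at 43.7 against 92.5 and Fcgr1 at 40 against 43.0, with Fcer1g at 110 against 129.

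Of these, Fcgr4 was lower in 9 of 9 samples and fell by 0.94 ± 0.18 (edgeR adjusted p = 3.1e-05). That fall is against the monocyte-like class as a whole. Medians over 15 samples were 30.7 CPM in its larger cluster (1582 cells) and 204 in the smaller (789 cells), and neither was tested alone. Fcgr1 fell by 0.53 ± 0.21 (edgeR adjusted p = 0.0281), Fcgr3 fell by 0.47 ± 0.16 (edgeR adjusted p = 0.0120) and Fcer1g fell by 0.36 ± 0.15 (edgeR adjusted p = 0.0346), lower in 8, 6 and 6 of 9 samples. All 5 members tested passed, beside 59.3% of 4995 genes, with a median of -0.53 over the members and -0.03 over all genes. Fcgr2b passed the filter on low counts through monocyte-like cells, with 726 UMIs there against 14 in macrophage-like cells. The B cell members Fcer2a, Fcmr and Fcrl1 were left out by it, so that neither count nor median is read as a result. The calls of Fcgr2b, Fcgr3 and Fcgr4 held in 9 of 9 alternatives, that of Fcgr1 in 3 and that of Fcer1g in 2. Over the alternatives the edgeR or DESeq2 adjusted p of Fcgr1 ran from 0.0215 to 0.149 and that of Fcer1g from 0.0299 to 0.178. The B cell gene Fcrl1, under the filter, was at a median of 22.2 against 8.58 CPM and higher in 8 of 9 samples, and with every gene in the fit, where 21% of the 21027 genes passed (4426 genes), it rose by 1.09 ± 0.37 (edgeR adjusted p = 0.0198). The summed B lineage markers given above were also higher in macrophage-like than in monocyte-like cells, and their part in this rise was not tested.

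**Figure D3:**
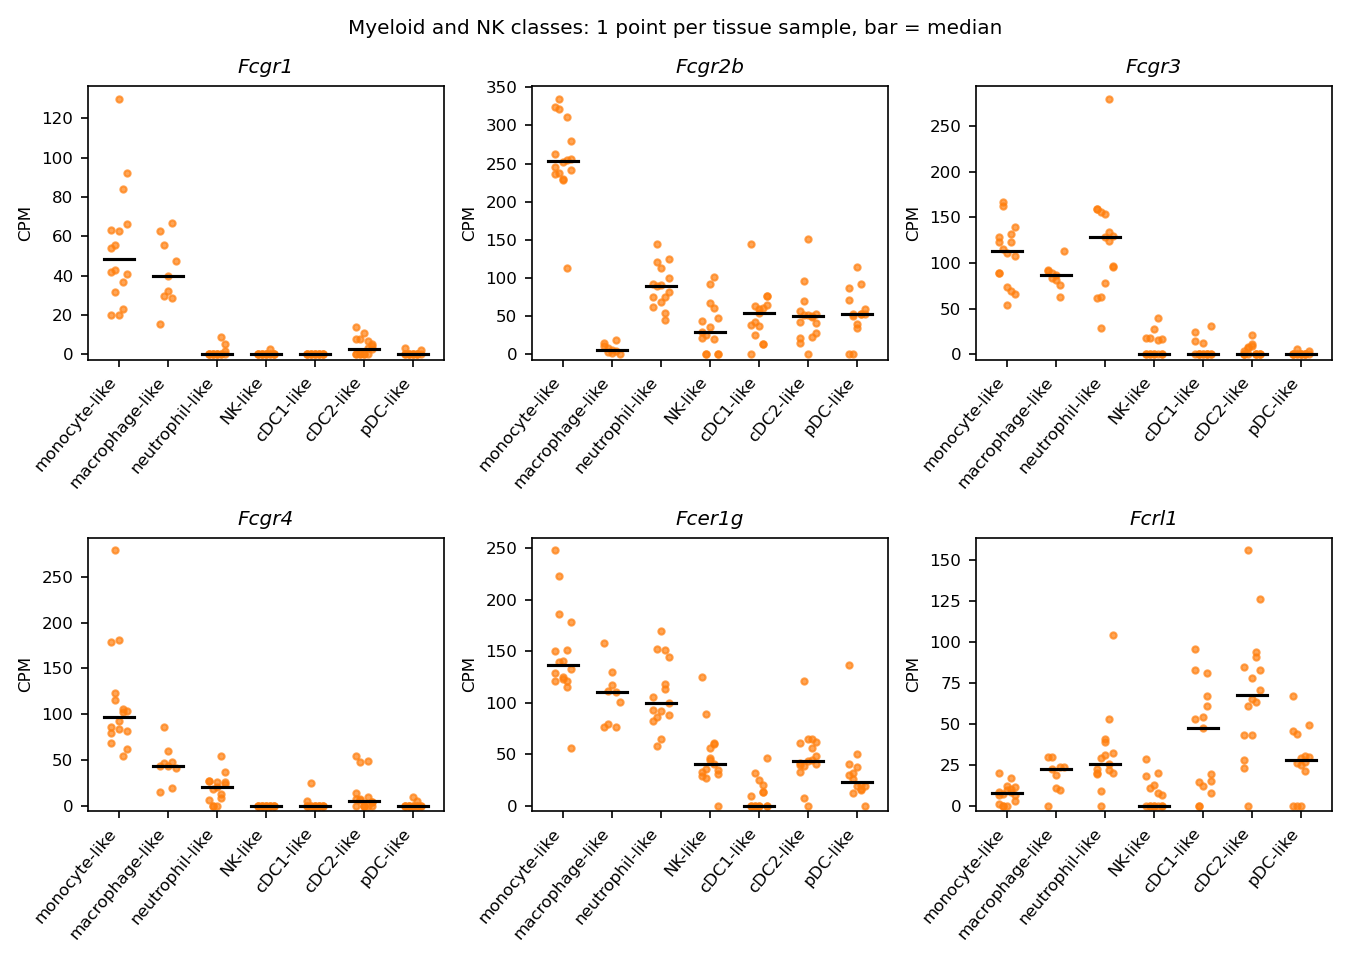
Levels of Fcgr1, Fcgr2b, Fcgr3, Fcgr4, Fcer1g and Fcrl1 in CPM (vertical axis) in the myeloid, NK and dendritic classes (horizontal axis), with 1 point per tissue sample and a bar at the median. Fcgr2b separates monocyte-like cells, at 113 to 335 CPM, from macrophage-like cells, at 0 to 19.1, and Fcgr1 is at a median of 0 in neutrophil-like cells.

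Neutrophil-like cells (1656 cells, 15 samples with both classes) carried CD16 transcripts with almost none of the high-affinity receptor. Fcgr3 ranged from 29.1 to 280 CPM with a median of 129, against 54.4 to 167 with a median of 115 in monocyte-like cells. It was higher in 7 and lower in 8 samples, with a difference of 0.15 ± 0.17 (edgeR adjusted p = 0.432). Fcgr1, the high-affinity IgG receptor, had 3 UMIs in these cells and a median of 0 CPM, against 19.8 to 130 with a median of 54.3 in monocyte-like cells, and was lower in 15 of 15 samples. It did not pass the filter on low counts, and with every gene in the fit, where 27.6% of 22854 genes passed, it fell by 5.30 ± 0.43 (edgeR adjusted p = 1.8e-33). Fcgr4 reached at most 53.9 CPM in neutrophil-like cells, where monocyte-like cells had 53.9 to 279, was lower in 15 of 15 samples and fell by 2.15 ± 0.23 (edgeR adjusted p = 2.4e-09). Fcgr2b, at 44.4 to 145 against 113 to 335 CPM, was lower in 15 of 15 samples and fell by 1.63 ± 0.14 (edgeR adjusted p = 2.7e-11).

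Fcer1g was at a median of 100 against 133 CPM, lower in 12 of 15 samples, and fell by 0.36 ± 0.15 (edgeR adjusted p = 0.0352). That call held in 6 of 10 alternatives, and its edgeR or DESeq2 adjusted p ranged from 0.0153 to 0.0738. So 3 of 4 members tested passed, beside 70.2% of 3971 genes, with a median of -0.99 over the members and -0.05 over all genes. The filter on low counts shaped both, so that neither is read as a result. Fcgr4 had 67 UMIs in neutrophil-like against 495 in monocyte-like cells, and Fcgr1, Fcer2a, Fcmr and Fcrl1 were left out. Fcrl1 was at a median of 25.5 CPM in neutrophil-like cells against 7.16 in monocyte-like cells, higher in 14 of 15 samples. It was under the filter, and with every gene in the fit it rose by 1.98 ± 0.31 (edgeR adjusted p = 1.3e-09). Fcer2a and Fcmr, the other B cell genes, did not pass there. Summed B lineage markers of both classes are given above, and their part in the rise of Fcrl1 was not tested. The comparison included sample 10, which was the highest of the other samples for Fcrl1 over all its cells, at 325 CPM.

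**Figure D4:**
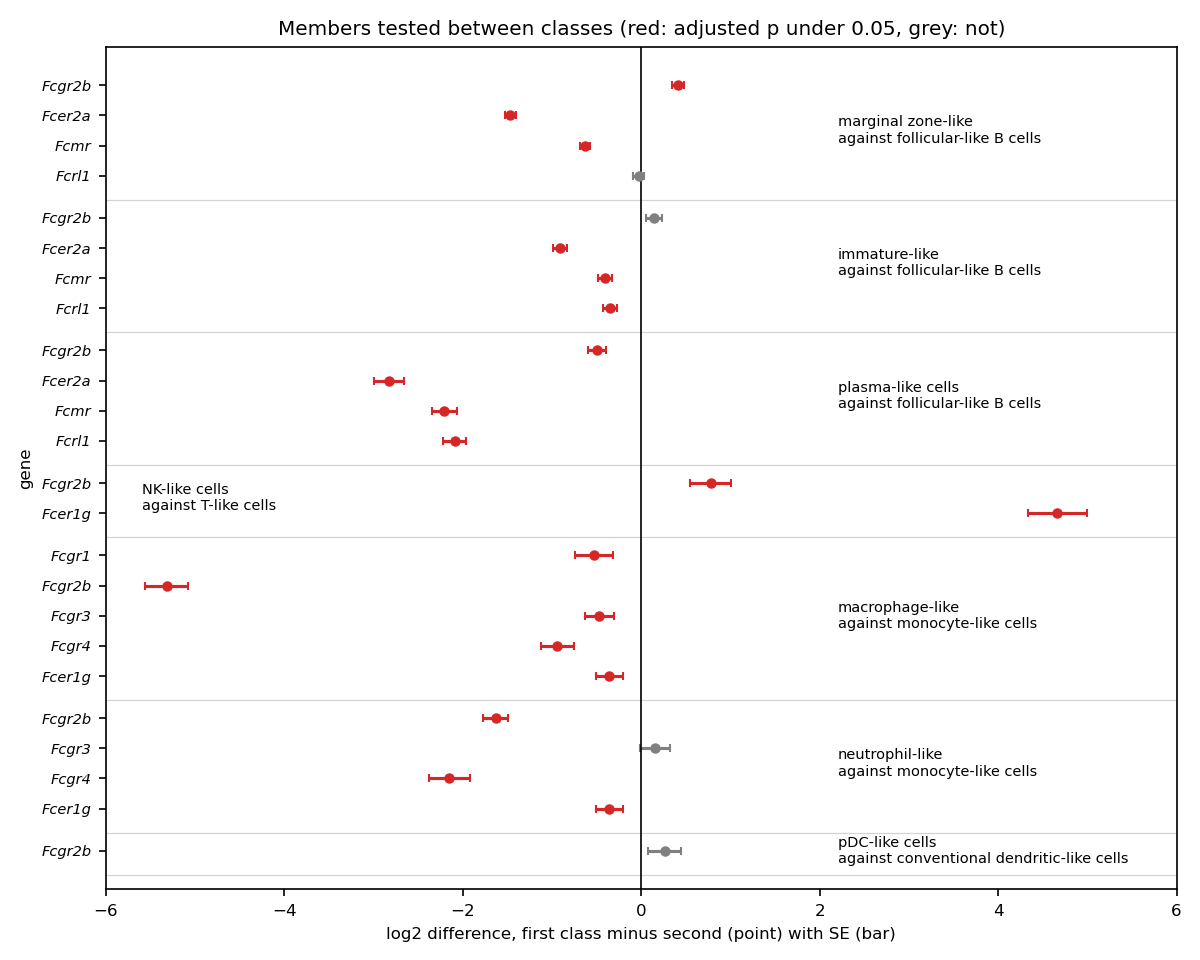
Difference of each member between classes on the log2 scale (horizontal axis, first class minus second, with the standard error as a bar) for the 7 comparisons in which members passed the filter on low counts. Fcgr2b spans the widest range, from -5.32 in macrophage-like against monocyte-like cells to 0.78 in NK-like against T-like cells.

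Within the monocyte-like and neutrophil-like classes the clusters differed in the members, which is given as a description because the clusters were picked after the values were seen. One monocyte-like cluster (1582 cells, led by Fn1 and Lyz2) had a median of 30.7 CPM of Fcgr4, against 204 in the other (789 cells, led by Ace, Cd300e and Adgre4), where it was higher in 15 of 15 samples. Fcgr2b went the other way, at 297 and 182 CPM and lower in the Ace cluster in 13 of 15 samples, and so did Fcgr1, at 66.6 and 29.2 CPM and also lower in 13 of 15. Of the neutrophil-like clusters, the one led by the granule genes Ngp and Ltf (1113 cells) had 87.1 CPM of Fcgr3 and 17.2 of Fcrl1. The one led by Csf3r and Cxcr2 (543 cells) had 270 and 72.3 CPM, each higher in 10 of 11 samples. The cluster of sample 10 with monocyte markers had 388 CPM of Fcgr2b and 74.2 of Fcgr4, and that with neutrophil markers 86.9 CPM of Fcgr3 and 0 of Fcgr1.

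Dendritic cells held little of the activating receptors. In cDC2-like cells (756 cells, 16 samples) Fcer1g was at a median of 43.9 CPM, and in cDC1-like cells (254 cells, 15 samples) at 0, with 12 UMIs in all. In activated DC-like cells (127 cells, 5 samples) it was at 76.4. Fcgr1 was at 14 and 0 UMIs in cDC2-like and cDC1-like cells, Fcgr3 at 9 and 7 and Fcgr4 at 30 and 2. Fcgr4 reached 54.2 CPM in a sample of cDC2-like cells, with a median of 5.23, and was higher than in cDC1-like cells in 9 and lower in 1 of 15 samples. No member passed the filter on low counts between cDC2-like and cDC1-like cells, where 49.4% of 2046 genes tested passed, so that 0 of 0 members tested were called by edgeR or DESeq2. With every gene in the fit 2 members passed, beside 10.6% of 21057 genes, and Fcer1g was 2.09 ± 0.40 higher (edgeR adjusted p = 3.8e-06) and Fcrl1 0.89 ± 0.26 higher (edgeR adjusted p = 0.00866) in cDC2-like cells. Fcer1g was higher there in 13 of 15 samples and Fcrl1 in 14 of 15.

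In pDC-like cells (555 cells, 14 samples) Fcer1g ranged from 0 to 137 CPM with a median of 23.1 and Fcgr2b from 0 to 114 with a median of 53.0. Against conventional dendritic-like cells Fcgr2b alone passed the filter, at 53.0 against 45.4 CPM and higher in 9 of 14 samples, with a difference of 0.26 ± 0.19 (edgeR adjusted p = 0.273, unadjusted p = 0.183). So 0 of 1 member tested was called by edgeR, and 0 by DESeq2, beside 50% of the 3933 genes tested (1967 genes), with a median of 0.26 over that member and 0.00 over all genes. With every gene in the fit, where 15.2% of 22490 genes passed, Fcrl1 fell by 1.17 ± 0.22 (edgeR adjusted p = 1.6e-06), at 28.0 against 62.1 CPM and lower in 13 of 14 samples. Fcgr4, on 2 against 30 UMIs, fell by 2.19 ± 0.80 there (edgeR adjusted p = 0.0424). B lineage markers stood at 593 to 4303 CPM in pDC-like, 367 to 3600 in cDC2-like and 209 to 3552 in cDC1-like cells, and their part in the Fcrl1 levels was not tested.

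The share of cells with a UMI followed the depth of the cells as well as the level. Fcer2a had a UMI in 47.6% of follicular-like B cells, against 6.49% of T-like cells, at median depths of 2007 and 2434 UMIs. With each cell thinned to 1000 UMIs the shares were 30.1% and 2.40%. Fcgr2b had a UMI in 32.9% of monocyte-like cells against 3.77% of T-like cells, and Fcer1g in 25.6% against 0.360%. Fcgr3 had a UMI in 28.2% of macrophage-like and 17.9% of neutrophil-like cells at median depths of 4150 and 1497 UMIs, and thinned cells gave 7.25% and 12.0%. The class with the highest share was the same at own depth and at 1000 UMIs for Fcer2a and Fcgr4 alone of the 8 members. The T-like shares are given as those of a class that should lack these receptors, and whether their UMIs came from the cells themselves was not tested.

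In the thymus the members were rare, as were cells of the B and myeloid lineages. Of 37478 thymic cells of the WT kit 36849 were thymocyte-like, 92 B-like, 61 pDC-like, 54 cDC1-like, 40 activated DC-like, 21 neutrophil-like and 15 macrophage-like, and 291 more lay in B cell clusters mostly of sample 1. Over all cells of a thymic sample no member exceeded 8.59 CPM, against medians of 2.28 (Fcgr1) to 156 (Fcrl1) over the other samples, values set side by side because tissue and mice differ. As lobes of 1 mouse are not independent, no test was made between thymic classes or kits.

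In the thymus the level of each B cell member was higher in B-like than in thymocyte-like cells. In B-like cells Fcrl1 was at 267, 142, 226 and 175 CPM in thymic samples 1 to 4, Fcer2a at 83.5, 313, 155 and 144, Fcgr2b at 66.8, 228, 143 and 83.7, and Fcmr at 251, 171, 47.6 and 91.3. No sample stood high or low for all 4 genes. The 16 T cell markers summed to 384 to 2989 CPM in these cells, against 16241 to 20217 in thymocyte-like cells. In thymocyte-like cells of the same samples the pooled levels were 2.68 CPM for Fcrl1, 1.46 for Fcer2a, 2.69 for Fcgr2b and 1.96 for Fcmr, and the ranges did not overlap with those of B-like cells. The share of all genes without such overlap was not counted, so that the lack of overlap is a description. The far more numerous thymocyte-like cells nevertheless held 82.0% of the thymic UMIs of Fcgr2b, 76.2% of Fcmr, 73.6% of Fcer2a and 72.5% of Fcrl1, against 7.68%, 10.4%, 17.4% and 12.3% in B-like cells. The thymocyte-like class also took in clusters led by B cell or myeloid genes. Part of these thymocyte-like UMIs came from 125 cells in a cluster led by the B cell genes Ccr6, Mef2c, Ciita and Pax5, where Fcrl1 was at 49.2 CPM, Fcgr2b at 44.3, Fcer2a at 42.6 and Fcmr at 26.2. In all, 3 clusters led by B cell or myeloid genes (279 cells) held 31.8% of the thymocyte-like UMIs of Fcgr2b. They held 12.8% of those of Fcer2a, 8.60% of Fcrl1 and 5.88% of Fcmr. Among these clusters was one of 111 cells led by Pid1 and H2-Ab1. Without the 3 clusters, a choice made after the data were seen, the thymocyte-like levels were 2.47 CPM for Fcrl1, 1.29 for Fcer2a, 1.85 for Fcgr2b and 1.86 for Fcmr.

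In the Mini kit (65 B-like cells) pooled levels were 233 CPM for Fcrl1, 174 for Fcer2a, 169 for Fcgr2b and 123 for Fcmr, against 203, 155, 113 and 119 in the WT kit. The 95% Poisson intervals of the 2 kits overlapped for each gene, for example 114 to 205 CPM (WT) and 123 to 238 (Mini) for Fcer2a. In the thymic B cell clusters mostly of sample 1, Fcrl1 was at 269 CPM, Fcmr at 160, Fcgr2b at 94.6 and Fcer2a at 61.8. In each of the 8 pairs of gene and kit the B-like level was over 10 times the thymocyte-like one. How many of all genes lay over 10 times higher was not counted, and B-like clusters were named from B cell markers. This count is therefore a description and not a result about the members. With called doublets kept in, the WT kit gave no B-like cluster, and the 4 pairs of the Mini kit remained.

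**Figure D5:**
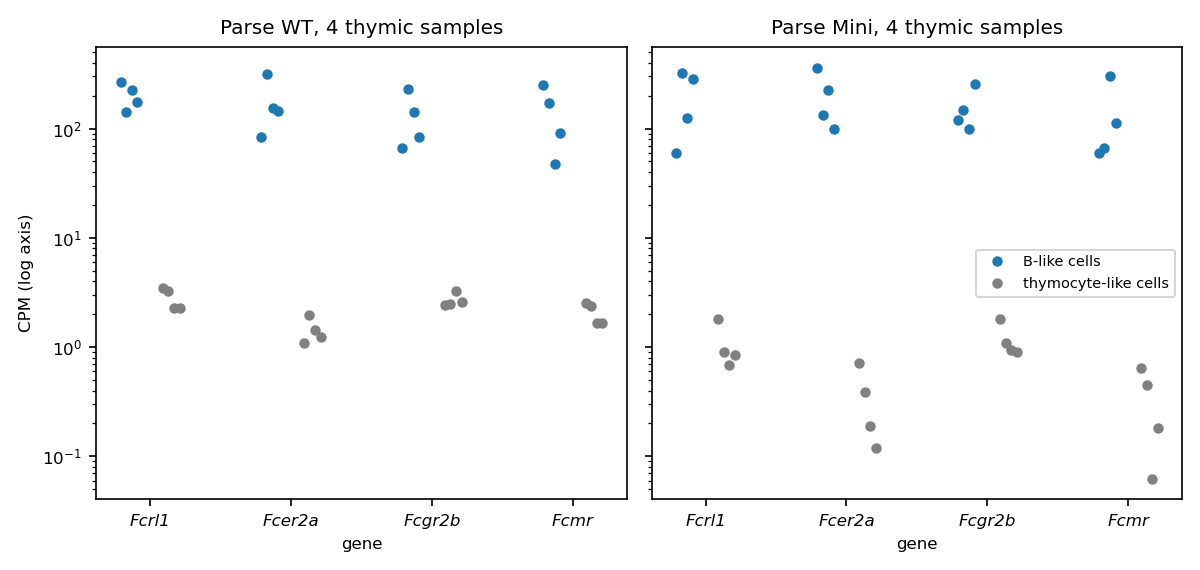
Levels of Fcrl1, Fcer2a, Fcgr2b and Fcmr in CPM on a log axis in B-like cells (blue) and thymocyte-like cells (grey) of the 4 thymic samples of each Parse kit, 1 point per sample. B-like cells lie between 47.6 and 362 CPM and thymocyte-like cells at or below 3.47 CPM.

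Thymic myeloid cells were too few for more than pooled levels, whose Poisson intervals cover counting error only. T cell RNA was present in all of these classes: the 16 T cell markers summed to pooled levels of 4293 CPM in macrophage-like, 9275 in neutrophil-like, 2729 in cDC1-like and 10288 in pDC-like cells of the WT kit and 3263 in macrophage-like and 3559 in cDC2-like cells of the Mini kit, against 17502 and 20783 in thymocyte-like cells of the 2 kits. At least 15 of the 16 had UMIs in each of these classes, Cd3e being at 0 in the WT macrophage-like and Trac in the Mini cDC2-like cells, and the part of this RNA in the levels was not tested. In the 15 macrophage-like cells of the WT kit Fcgr3 had 12 UMIs (135 CPM, interval 69.7 to 236), Fcer1g 7 (78.7 CPM, 31.6 to 162) and Fcgr2b 4 (45.0 CPM, 12.2 to 115). In the 36 of the Mini kit Fcgr2b had 22 UMIs (152 CPM, 95.3 to 230), Fcgr3 and Fcer1g 6 each (41.5 CPM, 15.2 to 90.3) and Fcgr1 5 (34.6 CPM, 11.2 to 80.7). The intervals of each gene overlapped between the kits, and the Mini cluster lacked UMIs of the marker Cd5l. In macrophage-like cells of the other samples Fcgr2b was at 0 to 19.1 CPM, below the pooled level of either kit here. The WT interval reached below 19.1 CPM, and no test was made between thymic and other samples. The 21 neutrophil-like cells had 7 UMIs of Fcer1g (95.2 CPM), 4 of Fcgr2b and 1 of Fcgr3, and thymic pDC-like cells had 7 of Fcer1g (19.5 CPM, 7.84 to 40.2). In thymic cDC1-like cells Fcgr1, Fcgr3, Fcgr4 and Fcer1g had 0 UMIs, with an upper Poisson bound of 12.2 CPM, and Fcgr2b had 10 (33.1 CPM). The 18 cDC2-like cells of the Mini kit had 15 UMIs of Fcgr2b (224 CPM, 126 to 370), with UMIs of the markers Clec4a4, Esam and Ltb absent.

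Genes that act with the members were counted from 6 lists. Except for the other Fc receptors these genes took part in forming the clusters, so that their counts are a description. Of 11 other Fc receptors 3 could be tested between marginal zone-like and follicular-like B cells, where Fcrl5 was at a median of 297 against 40.1 CPM (difference 2.99 ± 0.08) and Fcrla at 124 against 129 (-0.26 ± 0.07). Of these 3, 2 rose and 1 fell, where 33.4% of all genes passed, the other riser being the cytosolic receptor Trim21. In immature-like cells Fcrla was at 270 against 143 CPM (0.78 ± 0.08) and Fcrl5 at 12.1 against 41.3 (-1.84 ± 0.22), so that 1 rose, 1 fell and 1 did not pass, where 30.7% of all genes passed. In plasma-like cells, where 57.8% of all genes passed, 0 of the 2 tested passed, with edgeR adjusted p = 0.181 for Fcrla and 0.911 for Fcrl5. Fcgrt, the neonatal receptor that protects IgG from breakdown, was at 161 CPM in macrophage-like against 65.6 in monocyte-like cells (1.27 ± 0.15).

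Among the activating signalling genes 9 of 10 could be tested in plasma-like cells and all 9 fell, where 57.8% of all genes passed and 1732 of 6002 fell, with Syk at 640 against 1736 CPM and Lyn at 444 against 1477. Of 7 inhibitory signalling genes tested there 5 fell, Ptpn11 rose and Inppl1 did not pass. In macrophage-like against monocyte-like cells, where 1540 of 4995 genes fell, 4 of 7 inhibitory signalling genes fell, and Inpp5d, which encodes the SHIP1 phosphatase recruited by the Fcgr2b product, was at 873 against 777 CPM and did not pass. Of the activating list 5 of 9 fell there, with Card9 at 9.56 against 89.6 CPM, and Blnk rose, at 292 against 25.1. The adaptor Tyrobp had pooled levels of 70.7 CPM in macrophage-like, 121 in monocyte-like and 150 in pDC-like cells. Ncr1, an NK receptor that pairs with the gamma chain, was at 688 CPM in NK-like and 2.01 in T-like cells. As Ncr1 was among the markers that named NK-like cells, its difference is not read as a result. Clec4n, another partner of that chain, was at 134 CPM in macrophage-like and 10.7 in monocyte-like cells. Cr2, the complement receptor that also binds CD23, was at 2754 CPM in marginal zone-like against 865 in follicular-like B cells, and at 292 in immature-like against 936 in follicular-like B cells of the samples compared. Cr2 was among the markers that named marginal zone-like cells, so that its high level there is not read as a result either.

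Across 17 classes and 11196 genes with at least 20 CPM in 1 class, the gene most like each member by Pearson r of log2(CPM + 1) was as follows, as a description over classes that share samples and depth. Fcer1g was nearest to Tyrobp (r = 0.956), which encodes another adaptor chain with an activating motif. Fcer2a was nearest to Ighd (r = 0.955), the IgD heavy chain, and Fcmr to Cd79b (r = 0.988), a signalling chain of the B cell receptor. For Fcgr1 it was Lilra5 (r = 0.982), for Fcgr4 Pilrb2 (r = 0.963), for Fcgr3 Sec14l1 (r = 0.965) and for Fcrl1 Aldh7a1 (r = 0.972). Fcgr2b, present in B and myeloid classes, had no gene above r = 0.811, which was that of Xylt1.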

How the data were processed

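Cells of 20 tissue samples in the Parse WT library (9 sublibraries) and of 4 in the Parse Mini library (2 sublibraries) were analysed from the UMI counts per gene and cell that the authors deposited. The gene lists name mm10. The sources used here give neither the version of the split-pipe counting software nor whether introns were counted. The 10x data were not analysed here. Tissue samples were taken from the cell table, and the labels' replicate numbers name sublibraries. Gene coordinates came from GENCODE M21 (GRCm38), in which 52029 of the 57010 listed identifiers, including those of all 8 members, were found. The members and lists were chosen with earlier results of these data known.

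Cells were kept if they had between 500 and 25000 UMIs, of which 15% or less were mitochondrial. Doublets were called per sample from simulated doublets over 3 runs (lightgbm 4.6.0), at the rate of barcode collisions that each sample's well numbers predict, which removed 1568 cells of the other samples, 1891 of the thymic and 971 of the Mini samples. Clusters (leidenalg 0.10.2, 2500 variable genes, 40 principal components, 20 neighbours) were made without Fc receptor genes and named from marker lists. UMIs were summed per sample and class with at least 10 cells and compared with edgeR 4.0.16 (R 4.3.3) quasi-likelihood tests with the tissue sample as a block, in 8 comparisons, with Benjamini-Hochberg adjustment over all genes tested and a threshold of 0.05. Low counts were filtered with filterByExpr of edgeR. No p-value measures treatment, since samples carry no group, and lobes of 1 mouse were not used as replicates. Intervals are 95% Poisson intervals and cover counting error only. Named genes were the 8 members, genes of fixed pathway lists, and for each member the gene most like it by Pearson r over classes. In simulated counts 100% of the genes changed by 1 or 2 on the log2 scale were recovered in the marginal zone-like comparison (7810 genes), with 3.98% of calls false, and 97.9% and 100% in the neutrophil-like comparison (3907 genes), with 3.95% false. These changes covered 102 and 91 genes in the first and 96 and 76 in the second, with no sample effect. In the data 33.4% and 70.2% of genes passed. Smaller changes were not simulated, so that the rates do not carry over to the data. Alternatives were DESeq2 1.42.0, library sizes alone, no filter, no block, other treatments of doublets, no upper UMI limit, at least 30 cells and finer clusters, and, chosen after seeing the data, leaving out sample 10 and leaving 3 thymic clusters out of the thymocyte-like class.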

Additional observations from a re-analysis of the deposited data

Results flagged for a closer look

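Of 42 groups of 4 thymic samples (a member over all, B-like or thymocyte-like cells of a kit), 8 held a sample whose gap to the nearest of the others, divided by the range, exceeded Dixon's critical value for 4 samples, and chance gives about 1 in 20 for independent continuous values. That rate does not apply here, as each mouse gave 2 of the samples and 3 of the 8 are 1 UMI against 0. Over all cells Fcer1g stood high in thymic sample 3, at 2.57 CPM against 1.86 to 1.94 in the other samples. Fcrl1 stood high over all cells of thymic sample 1, at 8.59 CPM against 2.69 to 3.42, the sample that held 83.7% and 57.0% of the cells of 2 thymic B cell clusters. The remaining values rested on few UMIs. Fcgr3 was at 16.7 CPM in B-like cells of thymic sample 1 (1 UMI) against 0, and stood low in thymocyte-like cells of thymic sample 2, at 0.217 CPM (8 UMIs) against 0.304 to 0.317. In thymocyte-like cells of the Mini kit Fcgr1 was at 0.0647 CPM in Mini sample 1-B (1 UMI) against 0, and Fcgr3 at 0.240 CPM in Mini sample 2-B (4 UMIs) against 0.0627 to 0.0647. Over all cells of Mini sample 2-A Fcgr4 was at 0.0618 CPM (1 UMI) against 0, and Fcmr at 0.803 CPM (13 UMIs) against 0.764 to 0.768.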

How the results depend on the processing

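Over the alternatives 191 of 211 recomputed log2 differences of the members kept their side of the threshold, 19 no longer passed, 1 newly passed and no called difference changed sign. Of the differences that did not pass, that of Fcgr2b in immature-like B cells ranged from -0.04 to 0.16 and that of Fcrl1 in marginal zone-like B cells from -0.24 to 0.01. Between NK-like and T-like cells, where 2 members passed, 5 of 8 tested passed with no filter beyond 1 UMI (beside 14.8% of all genes), 5 of 5 with at least 30 cells per sample and class (6 samples; 34.6%), 1 of 1 with no upper limit of UMIs (36.2%), 1 of 1 with finer clusters (33.9%) and 0 of 0 with the 31% highest doublet scores left out (37.2%), so that apart from the fit with no filter the count followed how many members passed the filter. Between macrophage-like and monocyte-like cells, where 5 of 5 passed, 3 of 5 passed with DESeq2 (beside 54.0% of all genes), 3 with library sizes alone (58.3%), 3 without the tissue sample block (57.0%) and 3 with no upper limit of UMIs (59.2%). With no filter 2 of 8 instead of 0 of 0 passed between cDC2-like and cDC1-like cells (beside 10.6% of all genes) and 2 of 8 instead of 0 of 1 between pDC-like and conventional dendritic-like cells (15.2%), where doublets kept gave 1 of 2 (48.9%) and at least 30 cells gave 1 of 4 (5 samples; 37.1%). The cause was not tested, beyond more or fewer genes or samples entering the fit. In the thymus 4 instead of 8 pairs of gene and kit lay over 10 times above thymocyte-like cells with doublets kept, because the WT kit then gave no B-like cluster. The share of all genes was not counted there either. Leaving 3 clusters led by B cell or myeloid genes out of the thymocyte-like cells of the WT kit, with the Mini kit as it was, left the count at 8. In cells thinned to 1000 UMIs 2 instead of 8 members kept their class of highest share. The median of Fcgr2b in monocyte-like cells was 196 instead of 254 CPM when all UMIs were the denominator. The comparison of immature-like B cells with doublets kept, and that of cDC2-like and cDC1-like cells with the highest doublet scores left out, with no upper limit and with at least 30 cells, were not run. No paired analysis was possible because the numbers in the labels name sublibraries, over which the cells of every tissue sample are spread, and the block used in all comparisons was the tissue sample. Values that rest on few UMIs, as in thymic myeloid classes, carry the wide counting intervals given with them.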

Other observations

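Values of 2 members in the 16 other samples, whose groups the labels do not give, are listed here; these pairs of gene and class were picked after the values were seen, and how many other genes or classes differ in the same way was not counted. Fcer2a in follicular-like B cells was at 571, 650, 661, 670 and 551 CPM in samples 12 to 16, which share the start of their names in the cell table. It was at 379, 352, 299, 229, 334, 315, 334, 414 and 169 CPM in samples 1 to 9 and at 375 in sample 11. Sample 10 had under 10 such cells. Fcmr in B1 or atypical-like B cells was at 376, 402, 435 and 462 CPM in samples 12 to 15, on 13 to 47 cells each, and sample 16 had under 10 cells. In samples 1 to 11 it was at 178, 193, 292, 253, 266, 250, 271, 240, 156, 75.3 and 181 CPM.

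The 2 unnamed clusters of sample 10 combined high Fcrl1, at 521 and 413 CPM, and high Fcgr2b, at 335 and 228, with little Fcer2a, at 1.84 and 6.73, and little Fcmr, at 28.0 and 53.8. The cluster of 396 cells with T cell markers, mostly of sample 10, had 196 CPM of Fcrl1 and 130 of Fcgr2b, and the clusters of that sample with monocyte and neutrophil markers had 84.3 and 166 CPM of Fcrl1.

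In the thymus a cluster of 111 cells, led by Pid1, H2-Ab1 and Il1b, was counted with the thymocyte-like cells although these leading genes are not thymocyte genes. It had 144 CPM of Fcgr2b (95% Poisson interval 115 to 177), 46.3 of Fcer1g, 13.2 of Fcgr3 and 9.91 of Fcgr1. The 20 basophil or mast-like cells of the other samples, cells in which the gamma chain is part of the high-affinity IgE receptor, had 111 CPM of Fcer1g (30.3 to 285), with Fcgr2b and Fcgr3 at 139 each.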
